A study of Mus musculus with 16 samples.

Results

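Cells keep their volume in the face of changing salt and water by taking up small organic molecules, the osmolytes, among them myo-inositol, taurine, betaine and sorbitol. NFAT5, also called TonEBP, is the transcription factor best known for raising the genes that accumulate them when the medium is hypertonic, and in the brain myo-inositol and taurine are among the abundant osmolytes of neurons and glia. The 6 genes described here were Nfat5 itself, the myo-inositol transporter Slc5a3 (SMIT1), the taurine transporter Slc6a6 (TauT), the betaine and GABA transporter Slc6a12 (BGT1), the amino acid transporter Slc38a2 (SNAT2), and the aldose reductase gene Akr1b3, whose enzyme makes sorbitol from glucose. They were found by symbol, 6 of the 24062 genes in the table of counts, and the set was selected on the data: it was picked because Slc5a3 and Slc6a6 differed with ethanol. For those 2 genes every contrast of ethanol with water is therefore a description and carries no test. The other members and the further gene lists were chosen with earlier results of these data known. Their ethanol p-values are therefore not independent evidence.

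RNA came from whole brains, cerebellum included, of 16 female C57BL/6J mice taken at postnatal day 45, 4 mice in each of 4 groups. Water-Water (WW) mice drank tap water throughout. Nicotine-Water (NW) mice had 200 µg/ml nicotine in their bottles for 22 h per day, and water in the drinking sessions. Water-Ethanol mice had water in their bottles and 20% v/v ethanol in the limited-access sessions on 4 days, the last of which ran for 4 h, and Nicotine-Ethanol (NE) mice had both drugs. Nicotine bottles were taken away for the sessions, so NE mice had the drugs at separate times. Brains of NW and NE mice were taken after 4 h without nicotine. The paper says that effects in its nicotine group may stem from withdrawal. All 16 mice were of 1 strain and 1 sex and went through the same sessions. Each drank its own amount, so the dose differed between mice of a group. The paper also reported higher ethanol intake and blood ethanol in NE than in Water-Ethanol animals in the last session. Nicotine and ethanol dose therefore cannot be told apart where NE is compared with Water-Ethanol. Mouse numbers are those of the labels.

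Library totals ran from 27100352 to 32880979 counts. The neuronal gene Snap25 and the myelin gene Mbp were high in every library (lowest 69002 and 75189 normalized counts), and the liver gene Alb and the kidney gene Umod were at or below 1.81. Also of that liver and kidney list, Apoa2 had 9.56 to 24.0 and Slc12a1 up to 8.93 normalized counts, low beside the brain genes. A pair of libraries stood apart: WW 21 and NW 10 had cerebellum marker scores of -1.28 and -0.84, where the other 14 mice lay between 0.028 and 0.24 (mean log2 difference from the 16-mouse mean over 7 genes), and NW 10 also held the highest pituitary hormone counts. The counts of the 6 genes called were the same without this pair, and the shares of all genes called are given both ways where they moved. In bulk tissue, fewer cells of a type and less RNA per cell cannot be told apart.

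Levels are normalized counts, that is, counts scaled to a common effective library size, or FPKM, which is per length and allows genes to be compared. In FPKM over the 16 mice, Slc38a2 was the highest of the 6 with a mean of 75.8 ± 17.9 (SD, n = 16), followed by Slc6a6 at 31.6 ± 3.02, Nfat5 at 13.6 ± 1.41, Slc5a3 at 9.31 ± 1.83, Akr1b3 at 6.66 ± 2.35 and Slc6a12 at 1.05 ± 0.121. The ranges of Slc38a2 (45.9 to 112), Slc6a6 (27.7 to 36.4) and Slc6a12 (0.81 to 1.21) were clear of their neighbours in this order. Those of Nfat5 (11.5 to 16.3), Slc5a3 (5.70 to 13.3) and Akr1b3 (3.57 to 13.01) ran into each other over the 16 mice. Within a mouse, Nfat5 was above Slc5a3 and above Akr1b3 in 16 of 16, and Slc5a3 was above Akr1b3 in 13 of 16, so Slc5a3 and Akr1b3 are the neighbours whose order changed between mice. The place of Akr1b3 is uncertain, because its FPKM are split with a second gene model on the same exons, Gm6644; the sum of both, 24.1 to 31.0, was above Nfat5 in 16 of 16 mice and below Slc6a6 in 14. The highest mouse had 3.64 times the FPKM of the lowest for Akr1b3, 2.45 times for Slc38a2 and 2.33 times for Slc5a3, against 1.31 for Slc6a6, 1.42 for Nfat5 and 1.49 for Slc6a12.

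The genes lie apart in the genome, on 4 chromosomes of GRCm38 (mm10), as the models of the count table place them. Slc5a3 (ENSMUSG00000089774) is at chr16:92058322-92087473 on the plus strand with 2 exons and shares 145 exon bases at its start with Mrps6, a gene for a mitochondrial ribosomal protein that begins at position 92058336. Slc38a2 (ENSMUSG00000022462, minus strand, 16 exons) is at chr15:96687392-96699698 and Nfat5 (ENSMUSG00000003847, plus, 16 exons) at chr8:107293470-107379517. The other 3 are on chromosome 6, Slc6a6 (ENSMUSG00000030096, plus, 15 exons) at chr6:91684067-91759063, Slc6a12 (ENSMUSG00000030109, plus, 15 exons) at chr6:121346697-121365773 and Akr1b3 (ENSMUSG00000001642, minus, 10 exons) at chr6:34303930-34317489. Their start regions are shown because 3 of the genes moved together over the mice and because NFAT5 is known to act through a short element, the tonicity-responsive enhancer. Each window is 300 bases from RefSeq (GRCm38.p6), 250 before and 50 after an annotated start, read 5′ to 3′ on the gene's own strand, with any match to that element in capitals; RefSeq windows were matched for 4 of the 6 genes.
Slc5a3 (chr16:92058072-92058371, plus strand): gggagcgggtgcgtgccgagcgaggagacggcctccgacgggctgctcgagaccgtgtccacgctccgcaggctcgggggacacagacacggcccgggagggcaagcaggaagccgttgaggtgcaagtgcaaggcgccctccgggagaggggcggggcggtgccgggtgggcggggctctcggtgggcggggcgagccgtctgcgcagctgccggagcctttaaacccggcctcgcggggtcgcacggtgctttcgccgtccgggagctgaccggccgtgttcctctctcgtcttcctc
Slc38a2 (chr15:96699679-96699978, minus strand): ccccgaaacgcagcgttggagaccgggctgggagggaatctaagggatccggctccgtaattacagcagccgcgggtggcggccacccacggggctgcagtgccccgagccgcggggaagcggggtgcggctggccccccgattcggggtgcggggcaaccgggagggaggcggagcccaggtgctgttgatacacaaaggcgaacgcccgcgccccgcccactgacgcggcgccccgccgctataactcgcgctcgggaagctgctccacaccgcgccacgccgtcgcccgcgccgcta
Nfat5 (chr8:107293220-107293519, plus strand): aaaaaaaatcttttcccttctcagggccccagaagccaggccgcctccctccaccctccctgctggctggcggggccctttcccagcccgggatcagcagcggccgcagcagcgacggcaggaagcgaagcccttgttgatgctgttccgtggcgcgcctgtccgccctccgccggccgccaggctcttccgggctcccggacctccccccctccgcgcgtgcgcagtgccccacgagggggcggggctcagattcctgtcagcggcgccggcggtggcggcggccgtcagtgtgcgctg
Slc6a12, the first of its 5 annotated starts (chr6:121342324-121342623, plus strand): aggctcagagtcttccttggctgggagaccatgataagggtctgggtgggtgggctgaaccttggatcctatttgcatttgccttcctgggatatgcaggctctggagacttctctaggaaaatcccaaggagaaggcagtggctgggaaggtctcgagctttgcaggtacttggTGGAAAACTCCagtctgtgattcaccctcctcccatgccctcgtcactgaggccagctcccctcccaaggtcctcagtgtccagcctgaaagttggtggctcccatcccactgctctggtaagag

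The windows of Slc5a3, Slc38a2 and Nfat5 were rich in G and C (73.3%, 73.0% and 72.0%), and none held the tonicity-responsive enhancer, its core TGGAAA or the amino acid response element TGATGNAAT on either strand. The Slc6a12 window (55.7% G and C) held 1 match to the enhancer, which includes its core, and the windows of the other 4 Slc6a12 starts held neither. Over the 32817 RefSeq windows of this length, 4.95% held the enhancer, 21.4% the core and 0.966% TGATGNAAT. A match is a stretch of letters and was not tested as a site. Only these windows around annotated starts were searched. Whether the elements lie elsewhere in or near these genes was not tested, so absence from a window does not show that a gene lacks them.

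Slc5a3 was higher in the ethanol groups, which is what it was chosen by. Its normalized counts in the 4 WW mice were 2634, 2675, 2575 and 2548, and in the 4 Water-Ethanol mice 3269, 3106, 4089.6 and 3176. In NW mice 7, 8, 10 and 11 they were 1733, 2163, 2510.1 and 2855, and in the NE mice 3403, 3061, 3530.2 and 2939. Every one of the 8 ethanol mice was above every one of the 8 mice without ethanol. How many of all genes separate 8 from 8 mice in this way was not computed. The WW mice were within a narrow band (coefficient of variation 2.21%) and the NW mice spread widely (20.7%), with NW 7 and NW 8 the lowest of all 16. The log2 difference was 0.39 for Water-Ethanol against WW, 0.31 for NE against WW and 0.48 for NE against NW, and over all 16 mice ethanol groups were 1.35-fold higher (log2 0.43, 95% interval 0.27 to 0.60). Water-Ethanol mouse 15 was the highest mouse, and without it the Water-Ethanol against WW difference was 0.29.

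Slc6a6, the other gene the set was chosen by, differed less. Its normalized counts were 5130.3, 4955, 4917 and 5354 in WW, 5383, 5038, 5848 and 4999 in NW, 5928, 5194, 6410.5 and 5492 in Water-Ethanol, and 6299, 6062, 6292 and 5976 in NE. The NE mice lay above every WW and every NW mouse, while Water-Ethanol mouse 14 was below WW 21, so Water-Ethanol and WW overlapped. The log2 difference was 0.18 for Water-Ethanol against WW, 0.28 for NE against WW and 0.21 for NE against NW, and 0.19 (0.11 to 0.28) for ethanol over all mice, a 1.14-fold difference. The NE group had the smallest spread of the 4 (coefficient of variation 2.66%).

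**Figure D1:**
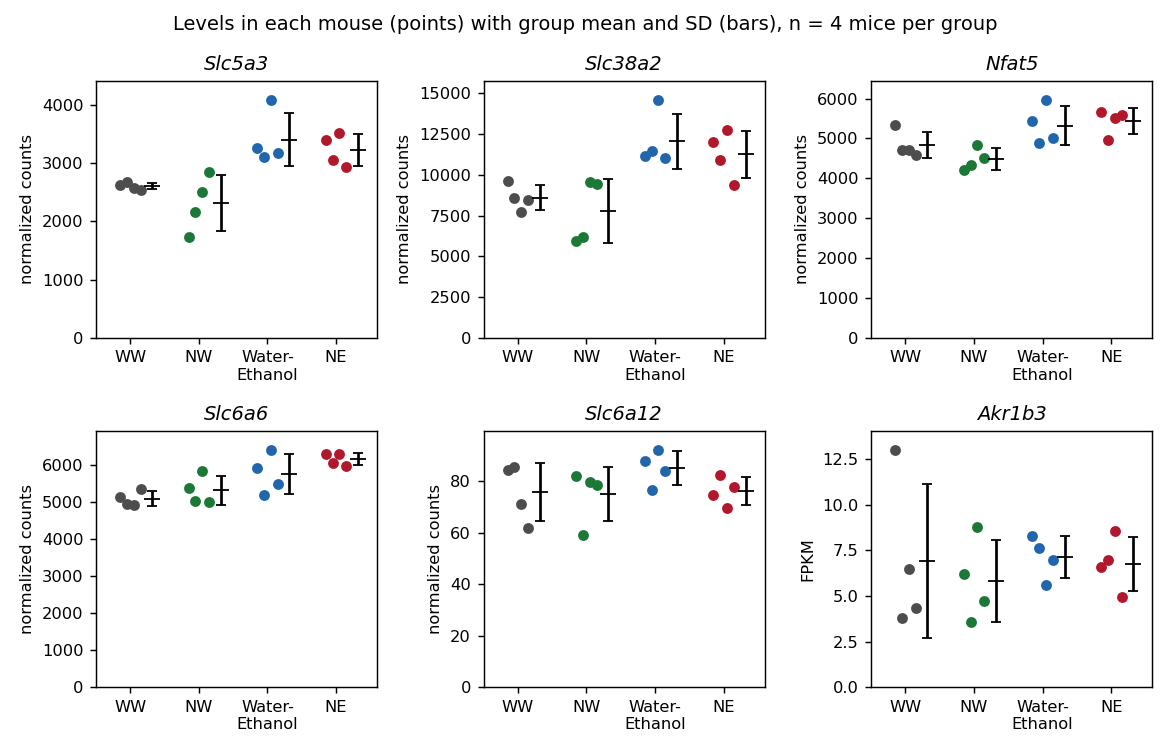
Level of each of the 6 genes in each mouse, by group (WW, NW, Water-Ethanol, NE), in normalized counts, or FPKM for Akr1b3; points are mice and the bar beside them is the group mean with its SD (n = 4). Slc5a3 and Slc38a2 show the widest gap between the ethanol groups and the others, NW 7 and NW 8 are their lowest points, and Slc6a12 and Akr1b3 overlap between all groups.

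Slc38a2, which carries small neutral amino acids with sodium and is known to rise under both hypertonic stress and amino acid shortage, was higher in the ethanol groups. It stands in lists the study drew from these mice, so its p-values are not independent evidence. Normalized counts were 9594, 8578, 7739 and 8454 in the WW mice and 11158, 11447, 14589.6 and 11022 in the Water-Ethanol mice. All 4 Water-Ethanol mice were above all 4 WW mice. In NW 7, 8, 10 and 11 the counts were 5925, 6195, 9531 and 9406, a low pair and a pair at the top of the WW range, and in NE they were 12027, 10904, 12721 and 9392. NE 5 lay among the mice without ethanol and the other 3 NE mice lay above them all. The ethanol effect over 16 mice, the mean of Water-Ethanol minus WW and NE minus NW, was 1.43-fold (log2 0.51, SE 0.098, 95% interval 0.31 to 0.72, adjusted p = 0.00851 by edgeR's quasi-likelihood test with Benjamini-Hochberg adjustment over 15592 genes; exact permutation p = 0.00122, two-sided). Water-Ethanol was higher than WW by 0.49 (SE 0.087, adjusted p = 0.0424 in edgeR's quasi-likelihood fit of those 8 mice; exact permutation p = 0.0286, the smallest that 4 against 4 mice can give). That call was lost in each of 6 fits that left out 1 mouse (WW 19, WW 20 or any Water-Ethanol mouse; edgeR adjusted p 0.054 to 0.145), with the log2 difference between 0.39 and 0.53 in them, and in the fit of all 16 mice (adjusted p = 0.122). NE against WW (0.39, adjusted p = 0.0735) and NE against NW (0.53, adjusted p = 0.246) did not pass by the same edgeR test.

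Nfat5 showed a smaller difference. Its normalized counts were 5335, 4713, 4717 and 4590.4 in WW, 4204, 4326, 4838 and 4520.1 in NW, 5430.5, 4888, 5964 and 5006 in Water-Ethanol, and 5675, 4964, 5510.1 and 5591 in NE. All NE mice were above all NW mice, and WW 18 kept WW from separating from either ethanol group. The ethanol effect over 16 mice was 1.16-fold (log2 0.21, SE 0.0457, 95% interval 0.11 to 0.31, adjusted p = 0.0169 by edgeR's quasi-likelihood test; exact permutation p = 0.00408). NE against NW was 0.28 (SE 0.0557, adjusted p = 0.165 by edgeR; exact permutation p = 0.0286), Water-Ethanol against WW 0.14 (adjusted p = 0.255 by edgeR) and NE against WW 0.17 (adjusted p = 0.159 by edgeR). With NW 7 and NW 8 left out, a pair singled out after their low Slc38a2 and Slc5a3 counts were seen, the ethanol effect on Nfat5 was 0.18 and no longer passed (edgeR adjusted p = 0.0789); that on Slc38a2 was 0.37 and passed (adjusted p = 0.0285), and that on Slc5a3 was 0.33. With WW 21 and NW 10 left out, the same 4 genes remained called.

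Slc6a12 was the lowest of the set and did not separate the groups. Its normalized counts were 84.3, 85.4, 71.4 and 61.9 in WW, 82.0, 59.3, 79.7 and 78.7 in NW, 87.9, 76.5, 92.2 and 83.9 in Water-Ethanol, and 74.8, 82.4, 69.5 and 77.9 in NE. The groups overlapped in all comparisons. The ethanol effect was 0.095 (95% interval -0.098 to 0.29, adjusted p = 0.563 by edgeR's quasi-likelihood test; exact permutation p = 0.249), an interval that leaves room for the sizes seen in Nfat5 and Slc6a6 and none for that of Slc38a2.

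Counted together, 5 of the 6 genes passed the filter on low counts, Akr1b3 being the one at 0, and all 5 passed on counts present in every group. Of these 5, 4 were called in the ethanol effect at an adjusted p under 0.05, all higher, where 4.5% of all 15592 genes tested were called (1.78% to 5.73% when 1 mouse was left out); Slc5a3 and Slc6a6 are among the 4 by their selection, and Slc38a2 stands in lists the study drew from these mice, so the count is not evidence on the set. In Water-Ethanol against WW 2 of 5 were called (Slc5a3 and Slc38a2) against 0.457% of all genes (5.17% without WW 21, with the same 2 called), and the same 2 lay wholly above the WW mice, as did 5.13% of all genes. This count, too, rests on genes selected on these data, and nothing is read from it. In NE against WW the 2 called were Slc5a3 and Slc6a6, the genes the set was chosen by, so their count was fixed by the choice and nothing is read from it; they also lay wholly above the WW mice. For all genes the shares were 0.313% called (1.84% without WW 21) and 5.22% wholly above. Both comparisons use the same 4 WW mice. NE against NW shares no mouse with Water-Ethanol against WW. In it 3 of 5 lay wholly above (Slc5a3, Slc6a6 and Nfat5), as did 4.4% of all genes. Slc5a3 and Slc6a6 are the genes the set was chosen by, so nothing is read from that count. There edgeR's quasi-likelihood test called 0 of the 5 and 0% of 15361 genes. Of all genes 1830 had an unadjusted p under 0.05, and DESeq2 called 94 genes, Nfat5 among them. The median log2 difference of the 5 was 0.21 for ethanol, where that of all genes was 0.0021. It includes Slc5a3 and Slc6a6 and is a description. On FPKM, limma called the same 4 genes in the ethanol effect, where it called 5.42% of genes.

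**Figure D2:**
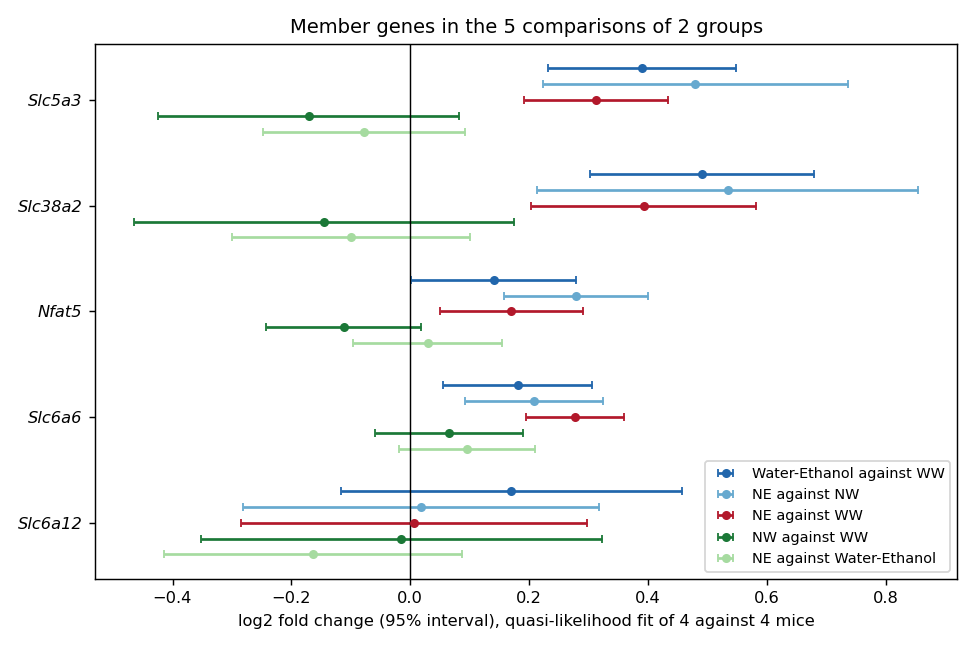
Log2 fold changes of the 5 genes with counts in the 5 comparisons of 2 groups (x axis), with 95% intervals from quasi-likelihood fits of 4 against 4 mice; each colour is 1 comparison. The 3 ethanol comparisons lie to the right of 0 for all 5 genes, and the intervals of NW against WW and NE against Water-Ethanol include 0 for all 5; the ethanol values of Slc5a3 and Slc6a6 are those the set was chosen by.

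Nicotine contrasts, which had no part in the choice of genes, gave no call. NW against WW was -0.17 for Slc5a3 (95% interval -0.42 to 0.082, adjusted p = 0.715), -0.14 for Slc38a2 (-0.46 to 0.17, adjusted p = 0.805), -0.11 for Nfat5 (-0.24 to 0.018, adjusted p = 0.65), 0.065 for Slc6a6 (-0.060 to 0.19) and -0.015 for Slc6a12 (-0.35 to 0.32), by edgeR's quasi-likelihood test. That test called 0% of 15344 genes here, with 1295 at an unadjusted p under 0.05, and DESeq2 called 123 genes, none of them of the set. NE against Water-Ethanol, groups that differ in nicotine and in ethanol intake, ran from -0.16 for Slc6a12 to 0.096 for Slc6a6. There edgeR's test called 0 of 5 and 0% of genes, with 888 at an unadjusted p under 0.05, and DESeq2 called 2, none of the set. Without NW 7 and NW 8, the NW against WW difference was 0.042 for Slc5a3 and 0.14 for Slc38a2, on the other side of 0, while Nfat5 stayed negative at -0.048; the pair was singled out for low Slc5a3 and Slc38a2, so a shift upward in those genes was built in. Over all 16 mice the nicotine effect ran from -0.12 (Slc5a3 and Slc38a2) to 0.080 (Slc6a6), with edgeR adjusted p from 0.536 to 0.814 and 0% of genes called (1599 at an unadjusted p under 0.05; DESeq2 called 104, none of the set).

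The interaction asks whether ethanol changed a gene by another amount in nicotine mice than in water mice, as NE minus NW less Water-Ethanol minus WW. It also takes in the higher ethanol intake that the paper reported for NE animals. It was 0.14 for Nfat5 (95% interval -0.047 to 0.34), 0.095 for Slc5a3 (-0.24 to 0.43), 0.048 for Slc38a2 (-0.36 to 0.46), 0.034 for Slc6a6 (-0.14 to 0.21) and -0.15 for Slc6a12 (-0.53 to 0.24), with edgeR adjusted p from 0.812 to 0.984. The test called 0% of genes, with 1054 at an unadjusted p under 0.05, and DESeq2 called 2, none of the set. Differences of up to 0.43 for Slc5a3 and 0.46 for Slc38a2 are within these intervals, so a difference between the drug backgrounds of nearly the size of the ethanol effect was not excluded.

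Akr1b3 could be read in 1 of the tables only. It had 0 counts in all 16 mice, yet its FPKM were 13.01, 3.83, 6.50 and 4.35 in WW, 6.23, 3.57, 8.78 and 4.73 in NW, 8.30, 7.64, 5.62 and 6.97 in Water-Ethanol, and 6.58, 6.97, 8.59 and 4.97 in NE. The count table places a gene named Gm6644 on the same exons, with 1352 exon bases in common, and Gm6644 also had 0 counts in all mice. The FPKM of the pair moved against each other over the 16 mice (Pearson r = -0.84, a description), with Akr1b3 taking from 12.6% to 52.9% of their sum. The sum itself ran only from 24.1 to 31.0, a coefficient of variation of 6.94% against 35.3% for Akr1b3 alone. In GENCODE M21, on the same build, Gm6644 is a processed pseudogene elsewhere, at chr1:55444074-55445024, with 99.7% identity to Akr1b3 over 951 bases. A further 2 processed pseudogenes were at least 95% identical over at least 500 bases. So was 1 unconfirmed transcript model, Gm38056 at chr1:55440904-55445930, whose span contains Gm6644 and is not a separate place. None of the other 5 genes had such a copy. Whether counting dropped reads with several alignments or reads on shared exons was not tested; 66 of the 3554 genes at 0 counts in every mouse had a mean FPKM of 1 or more.

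**Figure D3:**
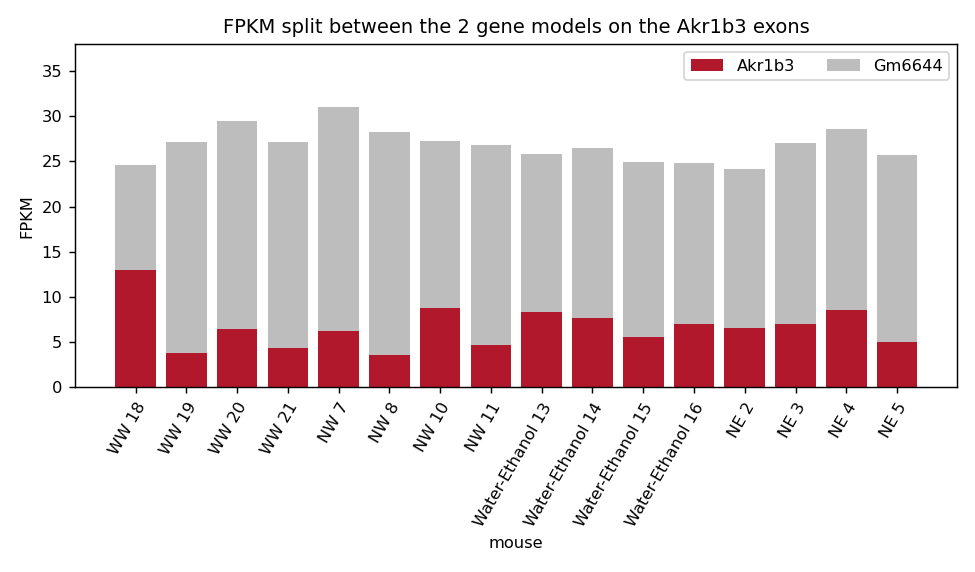
FPKM of Akr1b3 (red) and Gm6644 (grey) stacked in each of the 16 mice, labelled by group and mouse number. The split moves, with WW 18 at 52.9% and NW 8 at 12.6% Akr1b3, while the height of the stack stays between 24.1 and 31.0.

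On log2(FPKM + 1), Akr1b3 was not called in any comparison by limma; the ethanol effect was 0.19 (95% interval -0.25 to 0.64, adjusted p = 0.588). Summed with Gm6644, the means were 27.1 ± 2.01 in WW, 28.3 ± 1.88 in NW, 26.4 ± 1.91 in NE and 25.6 ± 0.762 in Water-Ethanol mice (SD, n = 4). The ethanol effect on the sum was -0.089 (-0.18 to 0.0019, adjusted p = 0.214 by limma), on the other side of 0 from that on Akr1b3 alone and within a narrower interval. Aldose reductase RNA thus gave no call in either form.

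Slc5a3 and Slc38a2 followed each other closely from mouse to mouse. Pearson's r of their log2 normalized counts over the 16 mice was 0.958, and it was 0.887 once each group's mean was removed; these are descriptions over mice that share the group differences and the scaling. For Slc38a2, Slc5a3 was the gene with the second highest r of 15592. Nfat5 had r = 0.842 with Slc5a3 and 0.839 with Slc38a2, which fell to 0.607 and 0.630 without group means. By r with Nfat5, Slc5a3 ranked 46 and Slc38a2 ranked 52 among all genes tested. Slc6a6 had 0.746 with Nfat5 and 0.613 with Slc5a3, which fell to 0.631 and 0.313 without group means. It ranked only 277 by r with Nfat5 and 1165 by r with Slc5a3. Slc6a12 was the least like the others, at 0.266 to 0.437.

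**Figure D4:**
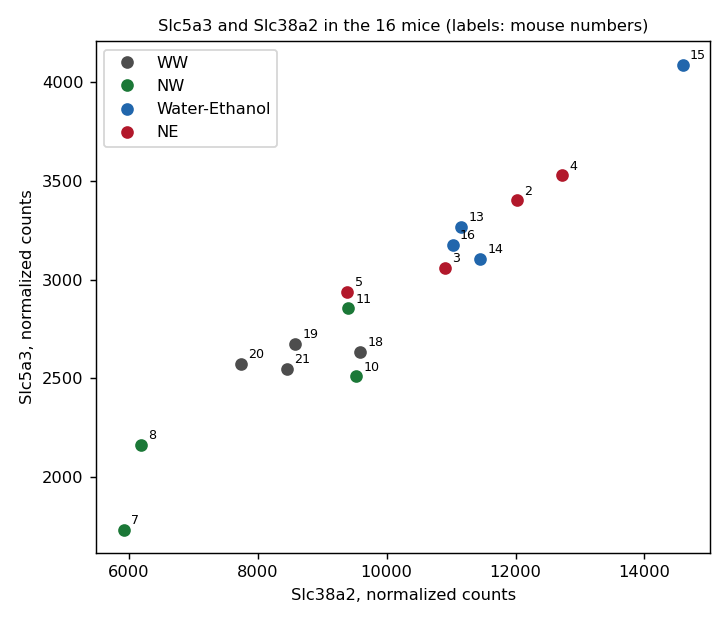
Normalized counts of Slc5a3 (y axis) against Slc38a2 (x axis) in the 16 mice, coloured by group and labelled by mouse number. The points run along 1 line from NW 7 and NW 8 at the bottom to Water-Ethanol mouse 15 at the top, and within the NW group the low and high pairs lie on that line too.

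The genes most like each of the 4 members with larger differences were taken by the highest r over the 16 mice. For Slc5a3 they were Ccng2 (r = 0.963; 0.901 without group means), Slc38a2, Dixdc1 (0.940), Heca (0.932) and Phf3 (0.931). For Slc38a2 they were Ccng2 (0.963; 0.899 without group means), Slc5a3, Sat1 (0.949), Ahctf1 (0.947) and N4bp1 (0.926), so Ccng2, which encodes a cyclin, headed both lists. For Nfat5 they were Fam160b1 (0.960; 0.927 without group means), Igf1r (0.939), Gm608 (0.921), Insr (0.921) and Lrp6 (0.917). This list holds both the IGF-1 receptor and the insulin receptor genes. For Slc6a6 they were Xpo6 (0.958; 0.931 without group means), Adcy4 (0.945), Cdc42bpb (0.933), Kirrel (0.909) and 1700021K19Rik (0.909). The lists of Nfat5 and Slc6a6 held no other gene of the 6.

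The other genes of osmolyte handling and cell volume control were read from lists drawn up with earlier results of these data known. These 11 lists held 75 genes, 68 of which were tested. In the ethanol effect 1 was higher and 2 were lower, and their median log2 difference was 0.015, beside 0.0021 for all genes. No gene of the lists was called by edgeR in any comparison of 2 groups, in the nicotine effect or in the interaction. The 3 called genes are 4.41% of the 68, beside 4.5% of all genes.

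The gene that rose was Trpv4, a calcium-permeable channel that opens on cell swelling and takes part in sensing osmolality. Its normalized counts were 125, 129.5, 106 and 149 in WW, 132, 118, 109 and 124 in NW, 169, 152, 178 and 153 in Water-Ethanol, and 165, 187, 200.5 and 175 in NE. All 8 ethanol mice were above all 8 others, the nearest being Water-Ethanol mouse 14 at 152 and WW 21 at 149. The share of all genes with such a split of 8 from 8 was not computed. Of all genes, 5.13% lay wholly above in Water-Ethanol against WW and 4.4% in NE against NW. The ethanol effect was 1.39-fold (log2 0.47, SE 0.0741, adjusted p = 0.00317 by edgeR's quasi-likelihood test; exact permutation p = 0.000408, the smallest possible), and it passed in all 29 alternative fits. The mean over 5 choroid plexus markers (Ttr, Kl, Folr1, Kcnj13 and Clic6) was higher in the ethanol groups by 0.18 on the same log2 scale (exact permutation p = 0.0233, 0.0785 adjusted over 13 marker lists). Only Kcnj13 of the 5 separated the ethanol mice from the others, with medians of 193 in WW and 203 in NW against 302 in Water-Ethanol and 279 in NE; Kl (1069 and 1126 against 1068 and 1053) and Folr1 (124 and 135 against 116 and 137) did not follow it. The summed counts of the 5 were 14519 to 23605 without ethanol and 18778 to 22608 with ethanol, and the part of these markers in the Trpv4 difference was not tested. Meningeal markers were lower by 0.21 (exact permutation p = 0.00898, 0.0769 adjusted over the lists), microglial markers by 0.17, oligodendrocyte markers by 0.15, astrocyte markers by 0.092 and endothelial markers by 0.058, each with an adjusted p over the lists between 0.0769 and 0.0937 (permutation). These differences go with the same contrast as the ethanol results above, and their part in them was not tested.

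The genes that fell were Lrrc8d, a subunit of the volume-regulated anion channel, and Gpcpd1, an enzyme that breaks down the osmolyte glycerophosphocholine. Lrrc8d had 1316 ± 51.5 normalized counts in WW, 1356 ± 91.0 in NW, 1235 ± 106 in NE and 1145 ± 34.3 in Water-Ethanol mice (SD, n = 4), an ethanol effect of -0.17 (SE 0.0419, adjusted p = 0.0287 by edgeR's quasi-likelihood test). Water-Ethanol lay wholly below WW, as did 5.68% of all genes, and NE overlapped both groups without ethanol. Gpcpd1 had 3502 ± 134 in WW, 3273 ± 141 in NW, 3029.5 ± 168 in NE and 3133 ± 115 in Water-Ethanol mice, an ethanol effect of -0.14 (SE 0.0323, adjusted p = 0.0234 by edgeR). Both ethanol groups lay wholly below WW, as did 5.68% of all genes in Water-Ethanol and 5.51% in NE. Of 16 fits that each left out 1 mouse, the Lrrc8d call was lost in 7 (without WW 19, WW 20, NW 8, Water-Ethanol mouse 13 or 15, NE 2 or NE 4; edgeR adjusted p up to 0.0724). The Gpcpd1 call was lost in 4 (without NW 8, Water-Ethanol mouse 15 or 16, or NE 4; edgeR adjusted p up to 0.063). Without NW 7 and NW 8 the edgeR adjusted p was 0.123 for Lrrc8d and 0.0695 for Gpcpd1. The other LRRC8 subunits and the chloride cotransporters of that list did not pass.

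**Figure D5:**
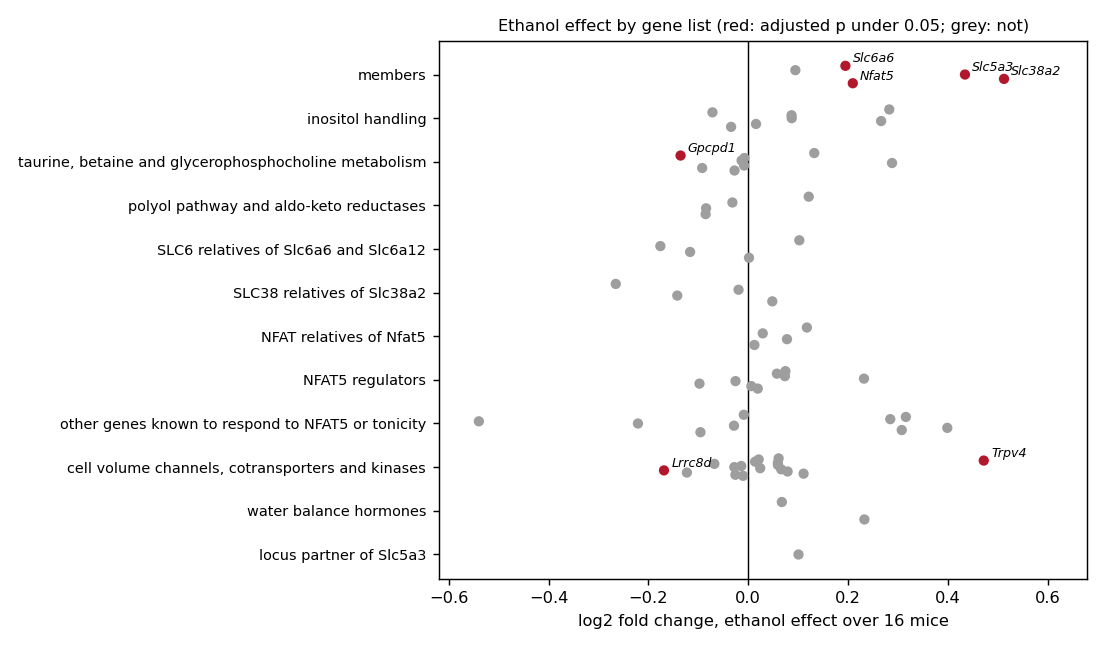
Ethanol effect over 16 mice as a log2 fold change (x axis) for each tested gene of the set, in the top row, and of the 11 lists of other genes; red points had an adjusted p under 0.05 in the quasi-likelihood fit and are named. Beyond the set itself, only Trpv4, Lrrc8d and Gpcpd1 are red, and the lists scatter about 0.

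By edgeR, close relatives of the members did not pass with them. Of the SLC6 relatives, the creatine transporter Slc6a8 had the smallest p, at 0.10 (adjusted p = 0.0512 by edgeR), while the GABA transporters Slc6a11 and Slc6a13 were at -0.12 and -0.18. The paper, by Cuffdiff, reported Slc6a13 as lower in NE than in WW. Its normalized counts were 309 ± 28.7 in NE and 382 ± 47.7 in WW (SD, n = 4). The SLC38 relatives, Slc38a1, Slc38a3, Slc38a4 and Slc38a5, ran from -0.27 to 0.048, Slc38a3 having the smallest p (-0.14, adjusted p = 0.121 by edgeR). The calcineurin-dependent NFAT genes Nfatc1 to Nfatc4 ran from 0.012 to 0.12, Nfatc2 having the smallest p (0.078, adjusted p = 0.327 by edgeR). A difference between a member and its relatives was not tested. Of 8 genes that act on NFAT5 the smallest p was that of the kinase gene Map2k3 (0.23, adjusted p = 0.057 by edgeR).

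Genes of osmolyte metabolism gave values and no call in 3 lists. Among genes that make, free, carry or use inositol, 5 of 7 tested were above 0, and Impa2, an inositol monophosphatase, had the smallest p (0.27, adjusted p = 0.11 by edgeR). In the polyol list it was Sord, the enzyme that turns sorbitol to fructose (0.12, adjusted p = 0.0811 by edgeR). Of the genes known to respond to NFAT5 or to tonicity, 0 of 9 tested passed, with the heat shock gene Hspa1b closest (0.40, adjusted p = 0.109 by edgeR), and 4 of the 9 were above 0. The vasopressin gene Avp was at 0.23 (adjusted p = 0.399 by edgeR) and did not pass in any comparison. Mrps6, whose first bases Slc5a3 shares, was at 0.10 for ethanol and was not called (adjusted p = 0.245 by edgeR). It lies on the same strand and overlaps 29138 bases of the Slc5a3 span. A difference between these genes was not tested.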

How the data were processed

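RNA-seq libraries of 16 whole mouse brains were used, 1 per mouse. Per the labels and the study's methods, the authors ran bcl2fastq 1.8.4, FastQC, Trimmomatic 0.32 and TopHat2 on mm10, then Cufflinks and Cuffdiff. The authors deposited raw counts and FPKM as separate gene tables, 1 column per mouse. The counting program and its treatment of strand and of reads with several alignments are not given in the sources used here. The labels name an unstranded kit and the methods a stranded one, so reads of overlapping genes may not be told apart.

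From the counts, edgeR 4.0.16 (R 4.3.3) was run with TMM factors, filterByExpr and the quasi-likelihood test, with Benjamini-Hochberg adjustment over all genes tested. Comparisons of 2 groups used their 8 mice; the ethanol and nicotine effects and the interaction used all 16. Single genes were also tested by exact two-sided permutation (70 arrangements of 4 against 4, or 4900 within levels of the other drug). FPKM of genes with a mean of at least 1 were tested by limma 3.58.1 on log2(FPKM + 1), a scale on which low genes change less. The GC alternative took transcripts from GENCODE M21, and copies were sought with BLAST+ 2.17.0. The scripts were tested on simulated data. DESeq2 1.42.0 was an alternative.

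Members and lists were chosen with earlier results of these data known. Slc38a2, Slc5a3 and Slc6a6 are also in gene lists the study drew from these mice, so their changes are not independent evidence. Named genes are all 6 members, listed genes that passed in any comparison or had the smallest p of their list for ethanol, and the 5 genes most like each of 4 members. Each mouse was a separate animal. Counts allow intervals over mice, and total depth was 27100352 to 32880979.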

Additional observations from a re-analysis of the deposited data

Results flagged for a closer look

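In 4 of 24 groups of 4 mice, 1 mouse stood apart from the other 3 by Dixon's ratio of its gap to the group's range; chance marks about 1 group in 20. Water-Ethanol mouse 15 was the highest Water-Ethanol mouse for both Slc5a3 (4089.6 normalized counts) and Slc38a2 (14589.6), and these genes follow each other over the mice, so the 2 are not separate. WW 18 was the highest WW mouse for Nfat5, at 5335 normalized counts. NW 8 was the lowest NW mouse for Slc6a12, at 59.3 normalized counts. Without Water-Ethanol mouse 15, Water-Ethanol against WW was 0.29 for Slc5a3 and 0.39 for Slc38a2 on the log2 scale.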

How the results depend on the processing

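No paired analysis was possible because the groups share no replicate numbers. The count of the 6 genes called depended on the fit in the comparisons of 2 groups. In Water-Ethanol against WW, 2 became 0 under limma on FPKM (3 versions), in the fit of all 16 mice and with marker score covariates, and 0 to 2 when 1 mouse was left out. In NE against WW, 2 became 0 under limma (3 versions) and in the fit of all 16 mice, 1 with covariates, and 0 to 2 when 1 mouse was left out. In NE against NW, 0 became 1 under DESeq2, 2 under the likelihood-ratio test and 4 with covariates. In the ethanol effect, 4 became 2 without NW 7 and NW 8, an alternative chosen after seeing the data, and stayed 4 when any 1 mouse was left out. Every other alternative gave a count of the 6 genes within 1.5 times; the cause of these shifts was not tested. Calls over all genes moved far more. In Water-Ethanol against WW they were 70, 603 by DESeq2, 620 by the likelihood-ratio test, 121 with upper-quartile factors, 143 without a filter, 45 with the GC offset, 28 in the fit of all 16 mice, 15 with covariates, 0 by limma, and 0 to 797 when 1 mouse was left out, the highest without WW 21. In NE against WW they were 48, 517 by DESeq2, 375 by the likelihood-ratio test, 94 with covariates, 15 with the GC offset, 1 by limma, and 0 to 283 when 1 mouse was left out, again highest without WW 21. In the ethanol effect they were 702, 1093 by DESeq2, 1061 without WW 21 and NW 10, 263 without NW 7 and NW 8, and 280 to 899 when 1 mouse was left out. Where edgeR's quasi-likelihood test called 0 genes, the highest count under any alternative was 137 in NW against WW, 256 in NE against NW, 2 in NE against Water-Ethanol, 104 for nicotine and 2 for the interaction.

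Slc6a12 changed sign in values near 0. NE against WW was -0.00641 with upper-quartile factors, -0.018, -0.028 and -0.018 in the 3 limma versions, -0.044 with covariates, -0.023 with the GC offset and -0.078 without WW 21 and NW 10; NW against WW was 0.0012 with upper-quartile factors and 0.064 without NW 7 and NW 8; NE against NW was -0.00583 and -0.061 in the same 2. Without NW 7 and NW 8, NW against WW was 0.042 for Slc5a3 and 0.14 for Slc38a2, the nicotine effect 0.021 for Slc38a2, and the interaction -0.12 for Slc5a3 and -0.24 for Slc38a2. The nicotine effect on Nfat5 was 0.0061 with the GC offset. Akr1b3 summed with Gm6644 turned in all 8 comparisons: -0.079 in Water-Ethanol against WW, -0.037 in NE against WW, 0.063 in NW against WW, 0.042 in NE against Water-Ethanol, -0.10 in NE against NW, -0.089 for ethanol, 0.053 for nicotine and -0.021 for the interaction.

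Leaving out 1 mouse also turned some signs. The ranges were, for Akr1b3, -0.18 to 0.047 in NE against Water-Ethanol, -0.11 to 0.41 in NE against WW, -0.33 to 0.18 in NW against WW, -0.033 to 0.48 in Water-Ethanol against WW, -0.20 to 0.054 for nicotine and -0.26 to 0.26 for the interaction. For NE against Water-Ethanol they were -0.011 to 0.086 for Nfat5, -0.16 to 0.0025 for Slc38a2 and -0.12 to 0.019 for Slc5a3. For the interaction they were -0.062 to 0.16 for Slc38a2, -0.022 to 0.21 for Slc5a3 and -0.016 to 0.086 for Slc6a6. For Slc6a12 they were -0.081 to 0.069 in NE against NW, -0.078 to 0.072 in NE against WW and -0.097 to 0.084 in NW against WW.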
